A study of Homo sapiens with 4 samples.

Results

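This report describes 10 genes for amino acid transporters of the plasma membrane in human colorectal cancer cells grown as attached cells or as spheroids: SLC3A2, SLC7A5, SLC7A11, SLC43A1, SLC7A1, SLC1A5, SLC1A4, SLC38A1, SLC38A2 and SLC6A9. They were taken by gene name from an RNA-seq table of 58735 genes, and each name matched 1 row. HCT116 and LOVO are established colorectal cancer cell lines, here labelled wild type. Each line gave 1 library from adherent cells and 1 from spheroids, 4 in all. Adherent cells grew without treatment in RPMI-1640 with 10% fetal bovine serum. Spheroids grew at ultralow attachment in serum-free DMEM/F12 with B27, N2, bFGF and EGF, with oxaliplatin, a platinum drug, present at 1 μg/ml by the study's text (the labels write 1 mg/ml and name no drug). Attachment, medium, serum and drug therefore differed together and cannot be told apart.

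Amino acids cross the plasma membrane through solute carriers that differ in what they carry. SLC3A2 (also called 4F2hc or CD98) is a heavy chain that does not transport by itself and brings light chains of the SLC7 family to the surface, among them SLC7A5 (LAT1), which exchanges large neutral amino acids such as leucine, and SLC7A11 (xCT), which takes up cystine in exchange for glutamate and so feeds glutathione synthesis. When cells lack amino acids or have a stressed endoplasmic reticulum, kinases phosphorylate the initiation factor eIF2α, the transcription factor ATF4 is made in larger amounts, and many transporter genes and amino acid enzymes are known to be induced by it.

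The table gives FPKM, the fragments per kilobase of gene, scaled to the size of the library, so levels can be compared between genes per length. The reads behind the values were recovered, with 15483569 to 20429147 reads on genes per library. Differences in log2(FPKM + 1) were computed over the 14429 genes with a mean of at least 1 FPKM over the 4 libraries, which all 10 transporter genes passed. The transporters were chosen with their difference between spheroids and adherent cells known, so that difference is given as a description without a test. Replicates were lacking, so no error between samples can be given. Intervals in brackets are 95% exact counting intervals, which cover the counting of reads only and compare libraries, not conditions. Of 10 intestinal epithelial markers, KRT8, KRT18, EPCAM, CDH1 and CDX2 were at 1 FPKM or more in both HCT116 libraries, joined by KRT20 in spheroids. The LOVO libraries lacked most of them. KRT8 and KRT18 were the only 2 at 1 FPKM or more in adherent LOVO cells, EPCAM was at 0.930 FPKM there and 1.5 FPKM in LOVO spheroids, and CDX1, CDX2 and VIL1 had 0 reads in both. CDH1 had 13 reads in adherent LOVO cells (0.117 FPKM) and 1 in LOVO spheroids, against 31.1 FPKM in each HCT116 library. The lines are named by their labels, and their identity was not tested. The 10 markers of other cell types summed to 8.51 to 24.5 FPKM per library, with PTPRC, which marks leukocytes, at 2 reads or fewer in each. Of these 10, the 3 with a mean of at least 1 FPKM were PECAM1, DES and COL1A1. In HCT116 all 3 had the higher level in spheroids, while in LOVO COL1A1 had the lower. PECAM1, an endothelial marker, measured 0.0359 FPKM in adherent LOVO cells (5 reads) and 6.35 FPKM in spheroids (992 reads), a difference in log2(FPKM + 1) of 2.83, and 0.37 in HCT116. DES, a muscle marker, measured 2.57 and 7.97 FPKM in HCT116, a difference of 1.33, and differed by 0.62 in LOVO. COL1A1, a fibroblast collagen, measured 5.51 and 15.5 FPKM in HCT116, a difference of 1.34, and differed by -0.62 in LOVO. Among the markers below that mean, COL1A2 had 1 read or fewer in each library. VWF had 36 and 58 reads in HCT116 and 7 and 14 in LOVO, adherent cells first. PDGFRB measured 0.0825 and 0.175 FPKM in HCT116 and 1.57 and 1.17 FPKM in LOVO, in the same order. The part of these marker levels in the results was not tested.

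Promoter stretches were available from RefSeq (GRCh38.p14) for 9 of the 10 genes, in 16 windows that each ran from 250 bases before to 50 after a transcription start; SLC7A11 had no entry. They were searched on both strands for TGATGNAA, the core of the element to which ATF4 binds with a C/EBP partner, for CACGTG, an E-box bound by MYC and related factors, and for TGACNNNGC, the core of the antioxidant response element. TGATGNAA was in 5 of the 16 windows, 1 each for SLC1A4, SLC1A5, SLC38A1, SLC3A2 and SLC7A1, against 3.62% of all 35116 windows. CACGTG was in 3 windows (7.26% of all windows) and TGACNNNGC in 4 (13.3% of all windows). No 2 matches in these windows overlapped. A match describes the letters only. Of the starts beside the TGATGNAA matches, only that of SLC7A1 was at the outer end of the gene's span. Those of SLC1A4, SLC3A2, SLC38A1 and SLC1A5 lay inside the gene. Each of these genes also had a window at another start without TGATGNAA. Any link of the matches to the levels was not tested. The 5 stretches with TGATGNAA are shown, each 30 bases long, 5′ to 3′ on the strand of the gene, with the match in capitals.
SLC1A4 (chr2:64989381-64989410, plus strand, match 7 bases before the start): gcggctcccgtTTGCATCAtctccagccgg
SLC3A2 (chr11:62881719-62881748, plus strand, match from base 38 of the transcript): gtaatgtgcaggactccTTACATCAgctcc
SLC7A1 (chr13:29595663-29595692, minus strand, match from base 8 of the transcript): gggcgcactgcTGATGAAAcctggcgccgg
SLC38A1 (chr12:46266502-46266531, minus strand, match 4 bases before the start): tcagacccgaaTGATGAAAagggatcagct
SLC1A5 (chr19:46784893-46784922, minus strand, match 97 bases before an annotated start inside the gene): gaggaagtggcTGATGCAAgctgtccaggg

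SLC7A5, the member with the lowest difference in LOVO, had no TGATGNAA in its window. The 250 bases before its start are shown for that reason (chr16:87869508-87869757, minus strand, 79.6% G or C, none of them in an annotated exon). The capitals mark the CACGTG, whose first base lies 130 bases before the start.
SLC7A5: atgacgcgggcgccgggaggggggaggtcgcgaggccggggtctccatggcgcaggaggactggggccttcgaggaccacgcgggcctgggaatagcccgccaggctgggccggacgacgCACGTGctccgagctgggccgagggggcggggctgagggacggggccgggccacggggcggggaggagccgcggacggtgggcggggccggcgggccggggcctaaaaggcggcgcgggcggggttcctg

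In both lines, nearly all of these transporters had less mRNA in the spheroids. In HCT116, 9 of 10 were lower (53.4% of all genes compared were lower) and 1, SLC38A2, was slightly higher (45.8% of all genes compared were higher). In LOVO all 10 were lower (53.5% of all genes compared). A log2 difference below -1 was seen for 5 members in HCT116 and 9 in LOVO, while 3.33% and 7.85% of all genes compared were that low. Below -2 lay 2 members in HCT116 and 5 in LOVO, beside 0.506% and 0.943% of all genes. The study's methods also cut at a log fold change of 2, but took it from the program edgeR and joined it to a P value. Here the cut is on log2(FPKM + 1) without a P value. SLC7A5 and SLC7A11 were below -2 in both lines, which 0.0416% of all genes compared were, and 5 members were below -1 in both (0.88% of all genes compared). The median over the 10 members was -0.96 in HCT116 and -1.98 in LOVO, and over all genes compared it was -0.03 and -0.06. Since the members were picked on this comparison, these counts describe them and nothing is read from the background. In bulk RNA, fewer cells with a transcript and less of it per cell cannot be told apart. For 9 of the 10 members the difference was further below 0 in LOVO than in HCT116, SLC7A11 being the exception. The share of all genes for which this held was not computed. Differences above 1 were also more common in LOVO (8.57% of all genes compared) than in HCT116 (2.19%). Whether the lines differ was not tested.

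**Figure D1:**
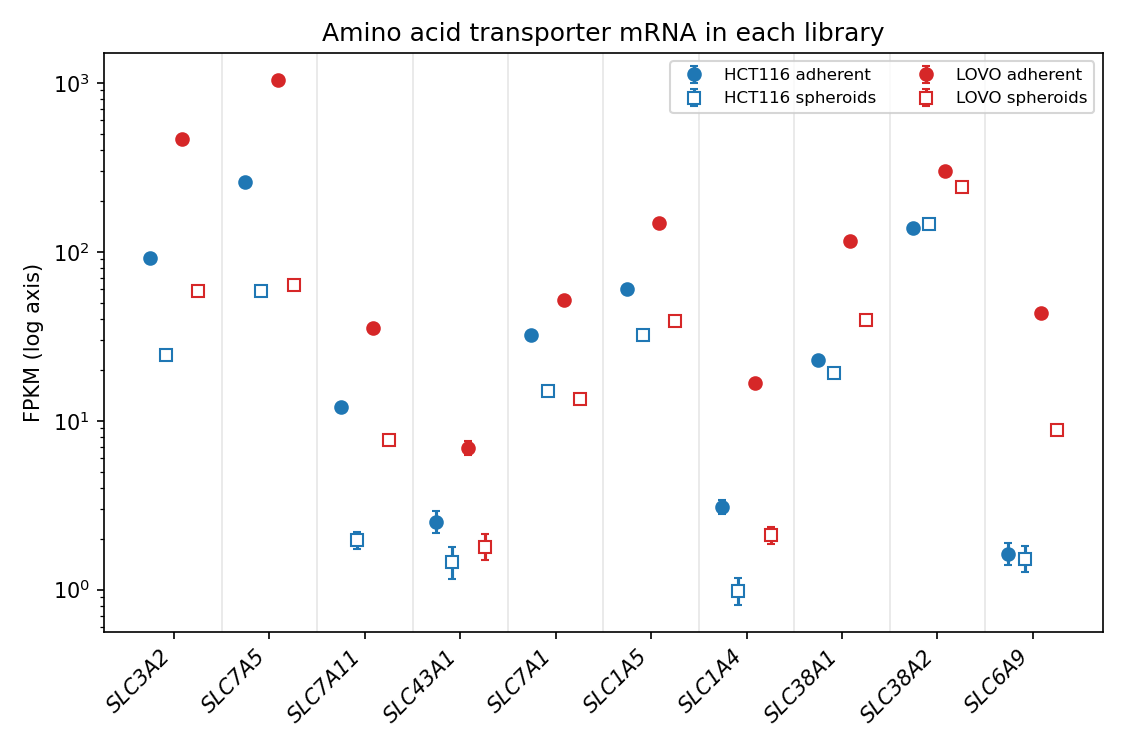
FPKM of the 10 transporter genes in each library on a log axis, with filled circles for adherent cells, open squares for spheroids, blue for HCT116 and red for LOVO; bars are 95% exact Poisson counting intervals, mostly smaller than the symbols. The adherent LOVO library holds the highest value of every gene, and SLC38A2 is the gene whose 4 values lie closest together.

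Summed over the 10 genes, adherent HCT116 cells held 623.7 FPKM and the spheroids of that line 302.2 FPKM, 2.06-fold lower. Adherent LOVO cells held 2220 FPKM and their spheroids 476.8 FPKM, 4.66-fold lower. SLC7A5 headed the adherent libraries, where it made up 41.7% (HCT116) and 46.9% (LOVO) of that sum. In the spheroids SLC38A2 stood first instead, with 48.4% and 51.0% of the sum, and SLC7A5 came to 19.5% and 13.2%. SLC43A1 was last of the 10 in both LOVO libraries. In HCT116 the last was SLC6A9 in adherent cells and SLC1A4 in spheroids. The counting intervals of genes next to each other in this order overlapped for 1 pair in adherent HCT116 cells (SLC1A4 and SLC43A1) and 0 in adherent LOVO cells. They overlapped for 3 pairs in HCT116 spheroids, SLC7A11 with SLC6A9, SLC6A9 with SLC43A1 and SLC43A1 with SLC1A4, and for 2 in LOVO spheroids (SLC38A1 with SLC1A5, SLC1A4 with SLC43A1).

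SLC3A2, the shared heavy chain (ENSG00000168003, chromosome 11, 62856102 to 62888875, plus strand), measured 91.5 FPKM in adherent HCT116 cells and 24.6 FPKM in HCT116 spheroids. In LOVO it measured 461.4 FPKM in adherent cells and 58.2 FPKM in spheroids. The spheroids were lower in both lines, and the value in LOVO spheroids was also under that of adherent HCT116 cells. The difference in log2(FPKM + 1) was -1.86 in HCT116 and -2.97 in LOVO. Without the pseudocount the log2 ratios were -1.90 [-1.97 to -1.83] and -2.99 [-3.03 to -2.95]. None of its exonic bases overlap exons of another gene in GENCODE 29, and none of its transcripts share a stretch of 50 bases with transcripts of another gene.

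SLC7A5, the light chain for large neutral amino acids (ENSG00000103257, chromosome 16, 87830023 to 87869488, minus strand), measured 259.8 FPKM in adherent HCT116 cells and 58.8 FPKM in HCT116 spheroids. It measured 1041 FPKM in adherent LOVO cells, from 88573 reads, and 63.2 FPKM in LOVO spheroids, from 6031 reads. The 2 adherent libraries lay far apart and the 2 spheroid libraries close together. SLC7A5 was 4.42-fold lower in HCT116 spheroids, with a difference in log2(FPKM + 1) of -2.12 and a log2 ratio of -2.14 [-2.19 to -2.10]. In LOVO it was 16.5-fold lower, with a difference of -4.02 and a log2 ratio of -4.04 [-4.08 to -4.00], and 3 of the 14429 genes compared had a lower difference. Of its 4745 exonic bases, 271 overlap AC126696.2 on the opposite strand, and it shares stretches of up to 155 bases with SLC7A5P2 and SMG1P3 and 72 with SLC7A5P1. SLC7A5P2 had 0 reads in all 4 libraries and SLC7A5P1 between 20 and 45, so few reads were assigned to these pseudogenes. SMG1P3 was not looked at, and how reads from shared stretches were assigned is not known.

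SLC7A11, the cystine light chain (ENSG00000151012, chromosome 4, 138164097 to 138242349, minus strand), measured 12.0 FPKM in adherent HCT116 cells and 1.96 FPKM in HCT116 spheroids. In LOVO it measured 35.1 FPKM in adherent cells and 7.65 FPKM in spheroids. Both spheroid libraries lay below both adherent libraries. The difference in log2(FPKM + 1) was -2.13 in HCT116 and -2.06 in LOVO, the latter -1.96 with values rescaled to TPM. At this gene's low level the pseudocount matters, and the log2 ratios without it were -2.61 [-2.78 to -2.44] in HCT116, a 6.10-fold lower level, and -2.20 [-2.28 to -2.12] in LOVO, 4.6-fold lower. The antisense gene SLC7A11-AS1 overlaps 865 of its 9645 exonic bases. It had 39 reads in adherent HCT116 cells and 4 in spheroids, and 175 and 66 reads in LOVO. Strand use in counting was not given in the sources used here, so reads in the overlap may not be separate.

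**Figure D2:**
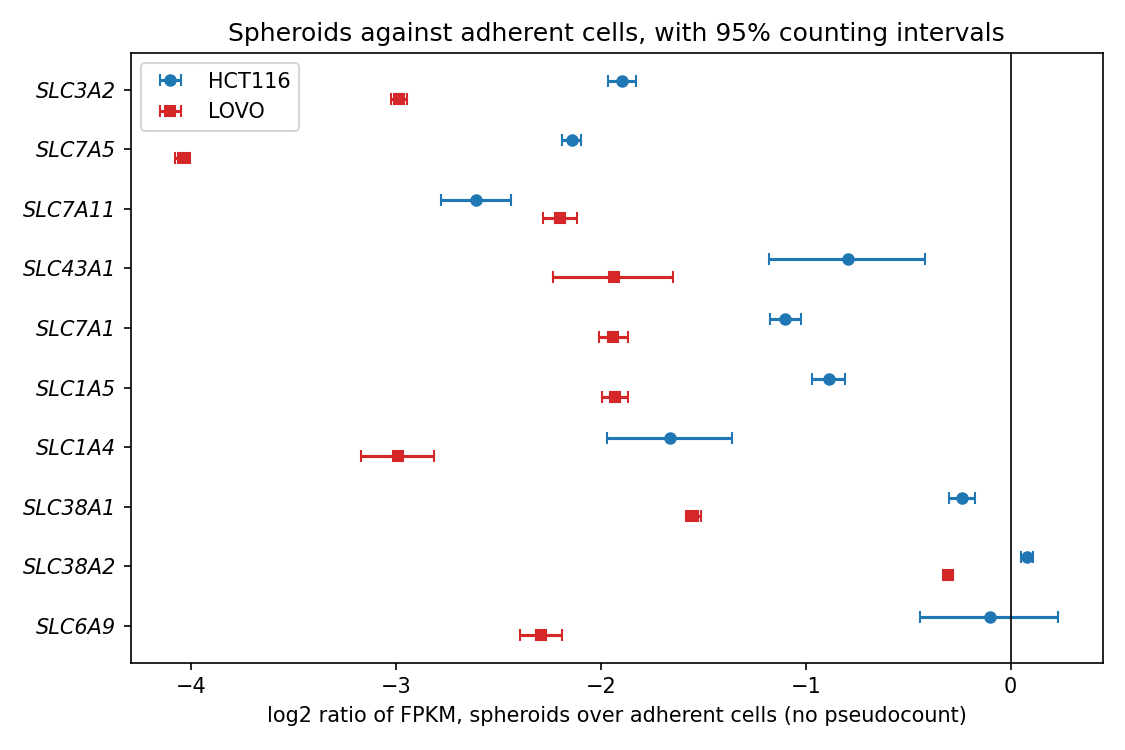
Log2 ratio of FPKM, spheroids over adherent cells, for each transporter without a pseudocount, with blue circles for HCT116 and red squares for LOVO; bars are 95% exact (Clopper-Pearson) counting intervals. Every LOVO interval lies below 0, the HCT116 interval of SLC6A9 spans 0, that of SLC38A2 lies above 0, and SLC7A11 is the gene whose HCT116 ratio is below its LOVO ratio.

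Heavy and light chains did not keep the same proportion. The 6 light chains known to pair with SLC3A2 (SLC7A5, SLC7A6, SLC7A7, SLC7A8, SLC7A10 and SLC7A11) summed to 3.06 times the FPKM of SLC3A2 in adherent HCT116 cells and 2.85 times in HCT116 spheroids. In LOVO they summed to 2.37 times in adherent cells and 1.44 times in spheroids. SLC7A5 was 92.9% and 95.3% of the light chain FPKM in adherent HCT116 and LOVO cells, and 84.0% and 75.3% in the spheroids. The share of SLC7A6, which exchanges cationic for neutral amino acids, was 1.5% and 1.35% in adherent cells and 6.20% and 11.4% in spheroids, while its own level was 4.18 and 4.34 FPKM in HCT116 and 14.7 and 9.58 FPKM in LOVO. SLC7A8, a light chain for neutral amino acids, measured 3.57 and 4.21 FPKM in HCT116 and 0.828 and 3.28 FPKM in LOVO, so that it was not lower in either spheroid library. The share of SLC7A11 was smaller in the spheroids of HCT116 (2.80% against 4.28% in adherent cells) and larger in those of LOVO (9.12% against 3.22%). These shares are of mRNA levels per length and carry no replicate error.

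**Figure D3:**
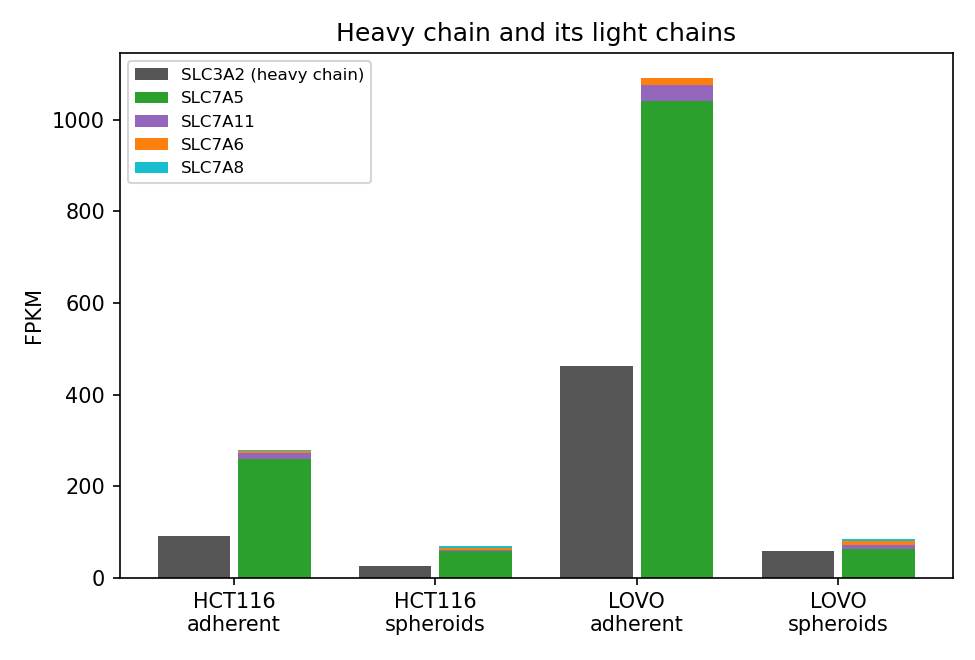
FPKM of the heavy chain SLC3A2 (grey bar) and of its light chains (stacked bar) in each library, on a linear axis from 0. SLC7A5 fills most of every light chain bar, from 75.3% in LOVO spheroids to 95.3% in adherent LOVO cells; SLC7A7 and SLC7A10 were at 0.536 FPKM or less and are not drawn.

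SLC43A1 (LAT3), a facilitator of large neutral amino acids that needs no heavy chain (ENSG00000149150, chromosome 11, 57484534 to 57515786, minus strand), was low throughout. It measured 2.51 FPKM in adherent HCT116 cells and 1.45 FPKM in spheroids, from 181 and 86 reads, and 6.90 and 1.80 FPKM in LOVO, from 437 and 128 reads. Both spheroid libraries were below both adherent ones. The difference in log2(FPKM + 1) was -0.52 in HCT116 and -1.5 in LOVO, and the log2 ratios were -0.79 [-1.18 to -0.42] and -1.94 [-2.23 to -1.65]. SLC7A5 stood at 103.3 times the FPKM of SLC43A1 in adherent HCT116 cells and 40.6 times in HCT116 spheroids. That ratio was 150.9 for the adherent LOVO library and 35.1 for its spheroids.

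SLC7A1 (CAT1), which takes up arginine, lysine and ornithine (ENSG00000139514, chromosome 13, 29509410 to 29595688, minus strand), measured 32.04 FPKM in adherent HCT116 cells and 14.9 FPKM in HCT116 spheroids. In LOVO it measured 51.8 FPKM in adherent cells and 13.5 FPKM in spheroids. The spheroid libraries of the 2 lines were close to each other and below both adherent libraries. The difference in log2(FPKM + 1) was -1.05 in HCT116 and -1.86 in LOVO, with log2 ratios of -1.10 [-1.18 to -1.02] and -1.94 [-2.01 to -1.87]. Its other family member for cationic amino acids, SLC7A2, measured 4.39 and 4.88 FPKM in HCT116 and 10.3 and 14.2 FPKM in LOVO, adherent cells first, and was not lower in the spheroids.

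SLC1A5 (ASCT2) and SLC1A4 (ASCT1) are sodium-coupled exchangers of small neutral amino acids, of which SLC1A5 also carries glutamine. SLC1A5 (ENSG00000105281, chromosome 19, 46774883 to 46788594, minus strand) measured 59.8 FPKM in adherent HCT116 cells and 32.3 FPKM in spheroids, and 147.8 and 38.8 FPKM in LOVO. The difference in log2(FPKM + 1) was -0.87 in HCT116 and -1.90 in LOVO, with log2 ratios of -0.89 [-0.97 to -0.81] and -1.93 [-1.99 to -1.87]. It shares a stretch of 780 bases with AC008622.2 on the opposite strand. SLC1A4 (ENSG00000115902, chromosome 2, 64988477 to 65023865, plus strand) was much lower, at 3.10 FPKM in adherent HCT116 cells and 0.978 FPKM in spheroids, and at 16.8 and 2.11 FPKM in LOVO. On the log2(FPKM + 1) scale SLC1A4 differed by -1.05 in HCT116 and -2.52 in LOVO. Its log2 ratios were -1.66 [-1.97 to -1.36] and -2.99 [-3.17 to -2.82], below those of SLC1A5 in both lines. SLC1A5 stood at 19.3 times the FPKM of SLC1A4 in adherent HCT116 cells, 33.0 times in HCT116 spheroids, 8.82 times in adherent LOVO cells and 18.4 times in LOVO spheroids.

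SLC38A1 (SNAT1) and SLC38A2 (SNAT2) are sodium-coupled transporters of small neutral amino acids, glutamine and alanine among them, and lie next to each other on chromosome 12. SLC38A1 (ENSG00000111371, 46183063 to 46270017, minus strand) measured 22.7 FPKM in adherent HCT116 cells and 19.3 FPKM in spheroids, a difference in log2(FPKM + 1) of -0.23, with a log2 ratio of -0.24 [-0.30 to -0.17]. In LOVO it measured 116.2 and 39.7 FPKM, a difference of -1.53, with a log2 ratio of -1.55 [-1.59 to -1.51]. SLC38A1 was thus lower in the spheroids of both lines, by more in LOVO. SLC38A2 (ENSG00000134294, 46358189 to 46372867, minus strand), which is induced when amino acids are scarce, had the smallest difference of the 10 in LOVO. It measured 138.6 FPKM in adherent HCT116 cells and 146.4 FPKM in spheroids, and 300.5 and 243.1 FPKM in LOVO. The difference in log2(FPKM + 1) was 0.08 in HCT116, at percentile 62.3 of the genes compared, and -0.30 in LOVO, at percentile 35.3. The log2 ratios were 0.08 [0.05 to 0.11] and -0.31 [-0.33 to -0.28]. Both differences kept their sign under every scaling and pseudocount tried, but the size in LOVO depended on the scaling, at -0.10 with values rescaled to TPM. SLC38A2 stood at 6.10 times the FPKM of SLC38A1 in adherent HCT116 cells and 7.60 times in spheroids, and at 2.59 and 6.13 times in LOVO.

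SLC6A9 (GLYT1), which takes up glycine with sodium and chloride (ENSG00000196517, chromosome 1, 43991500 to 44031467, minus strand), differed most between the lines. It measured 1.64 FPKM in adherent HCT116 cells and 1.52 FPKM in HCT116 spheroids, from 172 and 132 reads. In LOVO it measured 43.1 FPKM in adherent cells and 8.80 FPKM in spheroids. Only in LOVO was a difference detectable at this depth. The log2 ratio in HCT116 was -0.10 [-0.44 to 0.23], an interval that holds 0, and the difference in log2(FPKM + 1) was -0.06. In LOVO the log2 ratio was -2.29 [-2.40 to -2.19] and the difference -2.17, and the spheroids were 4.90-fold lower. CCDC24 on the opposite strand overlaps 404 of its 5159 exonic bases.

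The lines were then compared within each growth form, a comparison that did not define the members but shares its libraries with the differences above. In adherent cells all 10 transporters were higher in LOVO than in HCT116 (53.0% of all genes compared were higher), 9 of them by more than 1 on the log2(FPKM + 1) scale (17.4% of all genes) and 4 by more than 2 (5.26% of all genes). None was below -2, where 5.59% of all genes lay. The median difference of the members was 1.74, against 0.07 over all genes. It ran from 0.68 for SLC7A1 to 4.06 for SLC6A9, which had 26.3 times the FPKM in adherent LOVO cells. In spheroids 9 of the 10 were higher in LOVO (51.6% of all genes compared), 4 by more than 1 (17.7% of all genes), none by more than 2 (5.68% of all genes) and none below -2 (4.71% of all genes), and the median was 0.69 against 0.04 over all genes. SLC7A5 was nearly level between the spheroids, with a difference of 0.10 and a log2 ratio of 0.10 [0.05 to 0.16], while in adherent cells both were 2.0 [1.98 to 2.02 for the ratio]. SLC7A1 was lower in LOVO spheroids by a log2 ratio of -0.15 [-0.24 to -0.06], but its difference in log2(FPKM + 1) of -0.14 became 0.09 with values rescaled to TPM. SLC7A11 was the member with a larger ratio between the lines in spheroids than in adherent cells, with log2 ratios of 1.55 [1.48 to 1.62] in adherent cells and 1.96 [1.79 to 2.14] in spheroids.

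**Figure D4:**
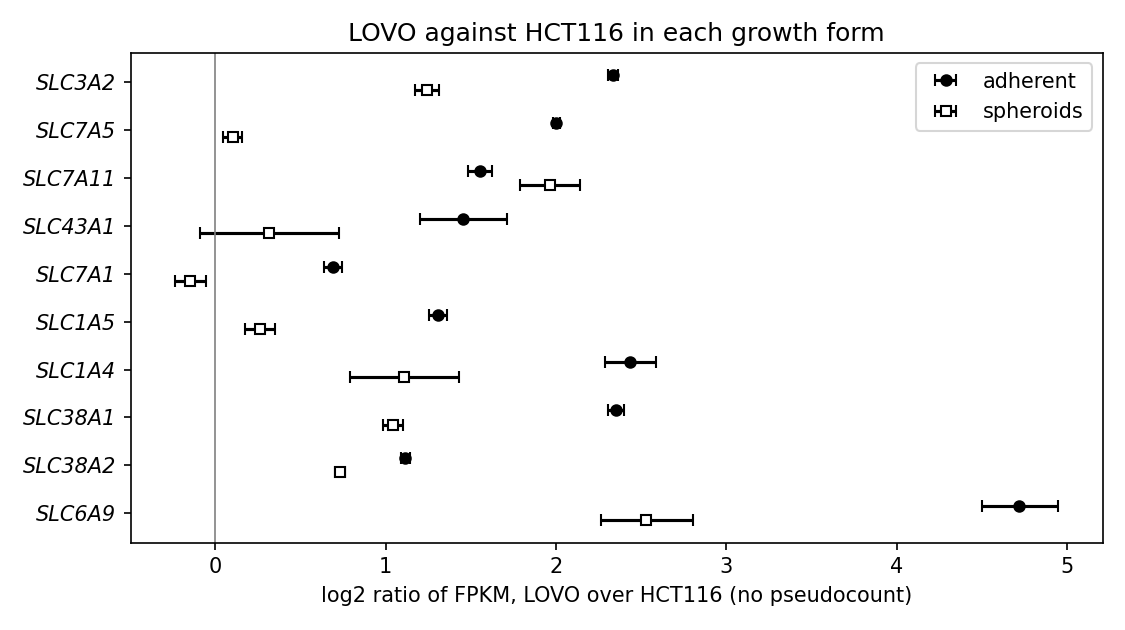
Log2 ratio of FPKM, LOVO over HCT116, for each transporter without a pseudocount, with filled circles for adherent cells and open squares for spheroids; bars are 95% exact (Clopper-Pearson) counting intervals. All adherent ratios lie above 0; in spheroids the ratio is smaller for every gene except SLC7A11, the interval of SLC43A1 spans 0, and SLC7A1 lies below 0, a side that changes with values rescaled to TPM.

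Transporters outside the 10 did not show a common direction. The 10 were picked with their differences known, so a contrast with the transporters left over is partly set by that choice. Nothing is read from it. Of 36 other plasma membrane amino acid transporters, 11 passed the filter on low values. In HCT116, 4 of the 11 were lower and 7 higher in spheroids (53.4% and 45.8% of all genes), with a median of 0.12. None differed by more than 1 (3.33% of all genes were below -1 and 2.19% above 1). In LOVO, 5 were lower and 6 higher (53.5% and 45.5% of all genes), with a median of 0.26. None was below -1 (7.85% of all genes) and 2 were above 1 (8.57% of all genes). The highest, SLC38A3, a glutamine transporter, measured 0.211 FPKM in adherent LOVO cells and 4.50 FPKM in LOVO spheroids, a difference of 2.18 (1.81% of all genes were above 2), and 1.14 and 0.810 FPKM in HCT116. The most abundant were SLC1A3, a glutamate transporter at 14.5 to 51.4 FPKM, and SLC38A10 at 13.8 to 28.2 FPKM. SLC38A10 differed by 0.20 in HCT116 and 0.98 in LOVO. Among 18 lysosomal and mitochondrial transporters 16 were compared, and their medians were -0.11 (HCT116) and -0.14 (LOVO). Below -1 lay 0 and 3 of them (3.33% and 7.85% of all genes), and 0 were above 1 in either line (2.19% and 8.57% of all genes). The lowest in LOVO was MFSD12, which serves cysteine import into lysosomes and melanosomes. It measured 227.3 FPKM in adherent LOVO cells and 35.3 FPKM in spheroids, a difference of -2.65, and 20.6 and 19.5 FPKM in HCT116. SFXN1, a mitochondrial serine transporter and the next most abundant, differed by -0.17 in HCT116 and -0.38 in LOVO.

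Most genes of the ATF4 pathway were also lower in the spheroids. Among 19 of its kinases, transcription factors and feedback genes, 18 were lower in HCT116 spheroids and 16 in LOVO spheroids (53.4% and 53.5% of all genes compared), 8 and 11 of them by more than 1 (3.33% and 7.85% of all genes), with medians of -0.93 and -1.14. ATF4 itself measured 290.5 FPKM in adherent HCT116 cells and 149.2 FPKM in spheroids, and 286.7 and 129.3 FPKM in LOVO, differences of -0.96 and -1.14. DDIT4, an mTORC1 inhibitor and the next most abundant, differed by -1.01 and -0.48. ATF4 is largely controlled through translation, so its mRNA does not give its protein level. Below -2 in HCT116 lay DDIT3 (CHOP), CHAC1, ATF3, TRIB3 and PPP1R15A (0.506% of all genes compared), and in LOVO CHAC1, SESN2 and NUPR1 (0.943%). NUPR1, counted as lower in HCT116 as well, passed the filter through LOVO. It had 4 reads in adherent HCT116 cells and 1 in spheroids, a difference of -0.03. CHAC1, which degrades glutathione, differed by -2.80 and -4.12. SESN2, a leucine sensor, differed by -1.59 in HCT116 and -2.61 in LOVO. Of 13 amino acid enzymes 12 were compared. In HCT116, 10 were lower (53.4% of all genes), 6 of them by more than 1 (3.33%), with a median of -1.02. CBS, counted as higher there, passed the filter through LOVO and had 1 read in adherent HCT116 cells and 6 in spheroids. In LOVO 11 were lower (53.5% of all genes), 10 by more than 1 (7.85%), with a median of -1.98. PSAT1, PHGDH and PSPH, the enzymes of serine synthesis, differed by -2.01, -1.28 and -0.75 in HCT116 and by -3.32, -3.29 and -3.28 in LOVO. ASNS, asparagine synthetase, differed by -2.42 and -1.87. PCK2, mitochondrial phosphoenolpyruvate carboxykinase, differed by -2.04 and -3.64, and MTHFD2, a mitochondrial folate enzyme, by -1.74 and -2.0. PYCR1, a proline synthesis enzyme and the second most abundant after PSAT1, differed by -0.70 and -0.71. CTH, which makes cysteine, differed by 0.65 in HCT116 and -3.05 in LOVO.

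SLC7A11 is also known as a target of NRF2, and cystine is used for glutathione. Of 15 genes of glutathione synthesis and NRF2 response, 15 were lower in HCT116 spheroids and 13 in LOVO spheroids, 5 and 6 of them by more than 1, with medians of -0.82 and -0.67. Of all genes compared, 53.4% and 53.5% were lower, and 3.33% and 7.85% by more than 1. None was below -2 in either line (0.506% and 0.943% of all genes compared). The most abundant were NQO1, a quinone reductase, with differences of -1.46 and -1.66, and TXNRD1, thioredoxin reductase, with -1.75 and -1.94. In LOVO the 2 genes that were not lower were HMOX1, heme oxygenase, at 0.79, and OPLAH at 0.05.

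By their pattern over the 4 libraries, the genes most like the 10 transporters were TFRC, TARS, GARS, PSMG1 and PROSER2. Likeness was the Euclidean distance between log2(FPKM + 1) values centred on each gene's mean and the median profile of the members, over 4 libraries. TFRC, the transferrin receptor, had a distance of 0.15 and measured 47.4, 23.4, 168.5 and 31.96 FPKM, the first pair in HCT116 and the second in LOVO, adherent cells before spheroids. TARS and GARS, the threonyl- and glycyl-tRNA synthetases, had distances of 0.22 and 0.40. PSMG1, a proteasome assembly chaperone, had 0.42 and PROSER2 had 0.49. A likeness over 4 values is a description of these libraries.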

How the data were processed

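The authors deposited 1 table of FPKM, 1 value per gene and library, with gene lengths and coordinates. Aligner, counter and strand use are not given in the sources used here. The submitters' processing notes name mouse builds (GRCm38, mm10), but all 58735 gene identifiers were found in GENCODE 29, 58724 with the same start and end on GRCh38, and coordinates are given on that build. FPKM times gene length gave whole reads for 100% of values above 0 (tolerance 0.01 reads), which were used for counting intervals. A floor of 3 reads equals 0.147 to 0.179 FPKM in a gene of 1 kb. The library sizes that the FPKM imply were 0.907 to 1.09 times the reads on genes.

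Differences were taken in log2(FPKM + 1) for genes with a mean of at least 1 FPKM, and counted past 1 and 2. Intervals were 95% exact ones (Poisson for levels, Clopper-Pearson for ratios). No test was run: each condition had 1 library. Members and gene lists were chosen with earlier results of these data known. Named were the members, the 5 genes nearest to their median profile and, from each list, genes past 2 in either line and the 2 most abundant. Those named beyond this (SLC7A2, SLC7A6, SLC7A7, SLC7A8, SLC7A10, HMOX1, OPLAH, SESN3, CBS, further marker genes and overlapping genes) were chosen after their values were seen. SLC7A13, with 0 reads in every library, was taken out of the light chains after its values were seen, which left their sums as they were. Alternatives were pseudocounts of 0.1 and 0.01, TPM, TMM-style scaling, centring, no filter, a mean of at least 5 FPKM and protein-coding genes only. Python 3.11.15 with numpy 2.4.6, pandas 2.3.3, scipy 1.17.1 and matplotlib 3.10.9 was used, and the computation was tested on simulated data.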

Additional observations from a re-analysis of the deposited data

Results flagged for a closer look

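Of the genes chosen by the naming rule, 6 had differences in log2(FPKM + 1) between spheroids and adherent cells of opposite sign in the 2 lines. The share of all genes with opposite signs was not computed. Of all genes compared, 53.4% were lower in HCT116 spheroids, 53.5% in LOVO spheroids and 35.1% in both, so opposite signs are not rare. Some genes named outside that rule, SESN3, HMOX1, OPLAH, SLC7A6 and EPCAM among them, also had opposite signs. None of these contrasts between lines was tested, with 1 library per condition. SLC38A2 differed by 0.08 in HCT116 and -0.30 in LOVO. The glutamate transporter SLC1A3 differed by 0.33 in HCT116 and -0.15 in LOVO. SLC38A3 differed by -0.24 in HCT116, where the counting interval of its log2 ratio held 0, and by 2.18 in LOVO. CTH, cystathionine gamma-lyase, which makes cysteine within the cell, differed by 0.65 in HCT116 (8.58 against 14.0 FPKM) and by -3.05 in LOVO (108.6 against 12.3 FPKM). The pseudogene SLC7A5P1 differed by 0.03 and -0.33, with 45 reads or fewer in each library. In both lines the counting interval of its log2 ratio held 0. COL1A1, a collagen chain used as a marker of other cell types, differed by 1.34 in HCT116 and -0.62 in LOVO.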

How the results depend on the processing

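The signs of the spheroid differences of all 10 transporters held in both lines under both other pseudocounts, TPM, TMM-style scaling and centring. Their sizes held less well in LOVO. There 25 of the members' values under these alternatives moved by more than the margin of their counting interval and 25 did not. In HCT116, 7 moved and 43 did not. Between the lines the sign of SLC7A1 in spheroids turned with TPM, from -0.14 to 0.0859. TPM moved the median of all genes from -0.06 to 0.10 in LOVO, and from 0.04 to 0.26 between the spheroids of the 2 lines. The members' median in LOVO was -2.06 with a pseudocount of 0.1, -2.07 with 0.01 and -1.84 with TPM, and under TPM 4 members in place of 5 were below -2, without SLC7A11. The share of all genes below -2 was 1.28% in HCT116 and 1.90% in LOVO with a pseudocount of 0.1, and 1.64% and 2.21% with 0.01. Below -1 in HCT116 these shares were 5.27% and 5.88%. Below -2 in HCT116 lay 0.894% with TPM and 0.773% with a mean of at least 5 FPKM. Without a filter on low values the shares below -2 were 0.128% and 0.238%, and below -1 they were 0.999% and 2.15%, over more genes. No paired analysis was possible because within each line a growth form had 1 library. A fit over both lines with the line as a block was not run, since the members were chosen on that contrast. No replicate could be left out.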

Other observations

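Genes by which mTORC1, the growth-regulating kinase complex, senses amino acids showed small differences. Of 31 listed, 29 were compared. In HCT116, 17 were lower and 12 higher in spheroids (53.4% and 45.8% of all genes compared), with a median of -0.07 and 1 gene above 1 (2.19% of all genes). In LOVO, 18 were lower and 11 higher (53.5% and 45.5% of all genes compared), with a median of -0.14 and 1 gene below -1 (7.85% of all genes). The gene past 1 was SESN3 in both lines, at 1.19 in HCT116 and -1.08 in LOVO; it was named after its values were seen. RRAGA, the most abundant, differed by -0.28 and -0.14, and RHEB, the activator of mTORC1, by -0.71 and -0.30. Among neighbours of the members, SNHG1, a non-coding RNA host gene near SLC3A2, measured 62.8 and 44.8 FPKM in HCT116 and 96.2 and 41.9 FPKM in LOVO, adherent cells first, and differed by -0.48 and -1.18.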
